A study of Mus musculus with 8 samples.

Results

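The genes described here are Csrnp1, 3 immediate early response genes (Ier2, Ier3 and Ier5), 4 Krüppel-like factors (Klf2, Klf4, Klf6 and Klf10), Btg2 and Zfp36. They were taken by name, and their probes were found through the RefSeq transcript given for each probe on the array. This gave 11 probes for the 10 genes, out of 55681 probes and 20018 named genes. Their levels were compared between whole retinas of Lpcat1 wildtype (WT) and Lpcat1 knockout (KO) C57BL/6 mice, both 2 weeks old, to ask which transcripts of the retina differ when the enzyme is missing. Lpcat1 encodes a lysophosphatidylcholine acyltransferase, which adds a fatty acid to lysophosphatidylcholine. Each genotype had 4 samples, and each sample was hybridized in a single colour to 1 Agilent array. The KO is a whole-animal deletion that began on a C57BL6/N background. The study crossed it to C57BL6/J and used no mice homozygous for the rd8 mutation of Crb1. The labels do not say whether samples came from separate animals, so p-values measure the spread between these samples, which may be technical.

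Early response genes are switched on within minutes to hours of a stimulus, from promoters already bound by factors such as SRF and CREB, and without new protein synthesis. Many encode transcription factors, and others encode proteins that shorten the life of the new transcripts, so that the response is brief. In the retina they are known to respond to light, to injury and to signals between neurons and glia.

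All 8 arrays lay on 1 slide, with the WT arrays in row 1 and the KO arrays in row 2, so row and genotype cannot be told apart. The number of probes well above background ran from 35020 to 36366 in WT and from 33110 to 35616 in KO (two-sided exact permutation p = 0.114), and 0 spots were saturated. A level below is the log2 signal of a probe minus the 75th percentile of its array, a difference is KO minus WT on that scale, and a gene was called at an adjusted p under 0.05 in limma with a fold change over 1.2. The targeted gene was read by 1 probe, at -0.42, -0.39, -0.43 and -0.38 in WT and -0.88, -0.92, -0.90 and -0.78 in KO. All 4 KO values lay below the WT values, and the difference was -0.46 (SE 0.04, limma adjusted p = 0.0036). Whether this probe falls inside the deleted part of Lpcat1 was not settled. Markers of rods, cones, bipolar, amacrine, horizontal and ganglion cells and of Müller glia were well above background on all 8 arrays. Of 7 lens markers, 4 were well above background on all 8 arrays and Crygb on none.

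Of the 10 genes, Csrnp1, Ier2 and Klf10 were higher in the Lpcat1 KO retina. Csrnp1 had about 2.03 times the WT signal, Ier2 1.49 times and Klf10 1.21 times. The other 6 genes with a testable probe had differences between -0.15 and 0.25 and were not called, and Zfp36 was not tested, since its probe was dim throughout. Thus 3 of 9 tested genes were called higher, against 2.2% of the 14939 genes tested on the array. None was called lower in limma (0 of 9), against 1.77% of all genes. At an unadjusted p under 0.05 there were 4 higher and 0 lower, against 10.9% and 15.3% of all genes, and the methods' t-test called 3 higher and 0 lower, against 1.71% and 1.29%. Every KO value lay above every WT value in 4 of the 9 genes, Klf2 being the fourth, against 8.78% of all genes. The reverse was seen in 0 of 9, against 12.4% of all genes. The median difference was 0.09 over the 9 genes and -0.02 over all tested genes. Since the tissue was whole retina, a change in the number of cells of a type and a change in RNA per cell cannot be told apart.

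**Figure D1:**
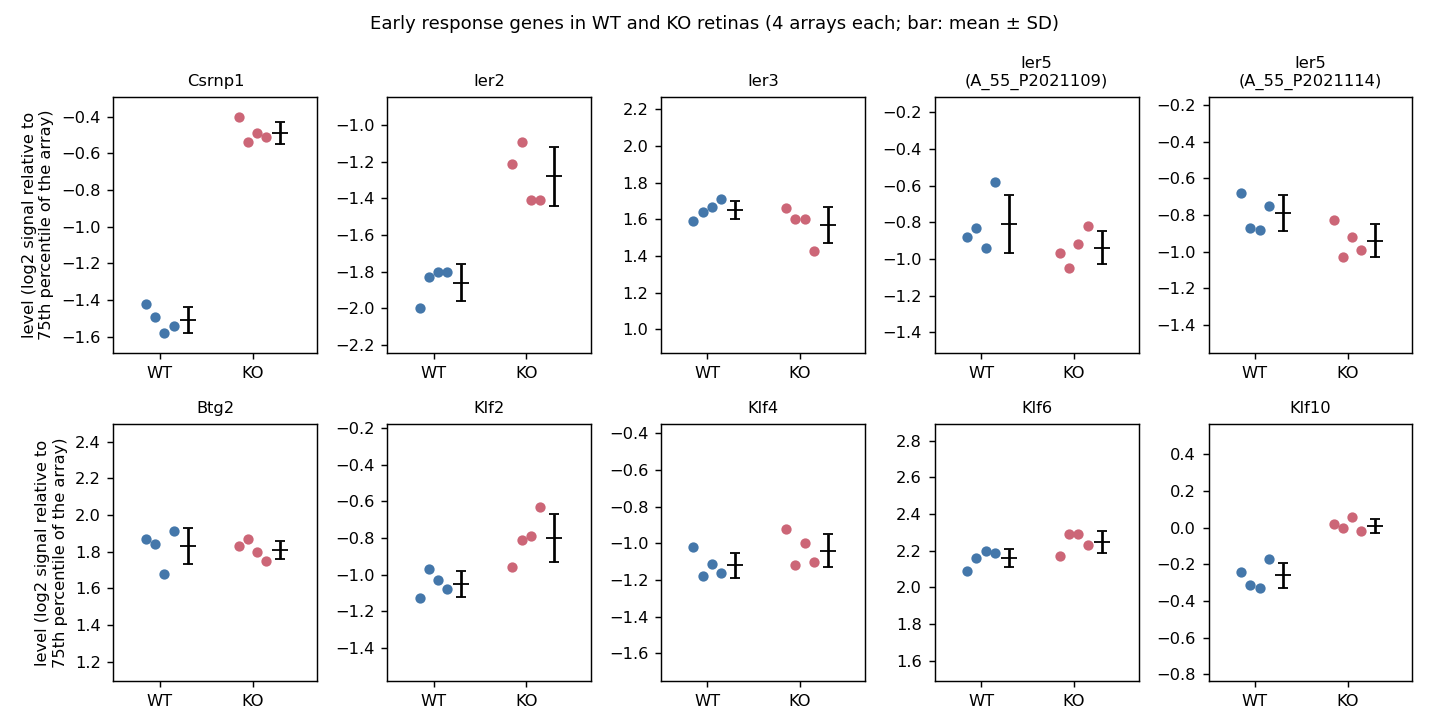
Level of each tested probe (y axis, log2 of the signal after subtraction of the array's 75th percentile; every panel spans the same log2 range) in 4 WT (blue) and 4 KO (red) arrays, with mean ± SD beside them. The points of Csrnp1, Ier2, Klf10 and Klf2 do not overlap between genotypes, and those of the other probes do.

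Csrnp1 encodes a nuclear protein rich in cysteine and serine that binds DNA and activates transcription, first described as a gene induced by Axin1. Its level was -1.42, -1.49, -1.58 and -1.54 in the 4 WT arrays. In KO it was -0.40, -0.54, -0.49 and -0.51. The genotypes were thus far apart, with a spread within each of 0.16 and 0.14. The means were -1.51 ± 0.07 and -0.49 ± 0.06 (SD, n = 4 each), and the difference was 1.02 (SE 0.05, 95% interval 0.91 to 1.14, limma adjusted p = 0.00024). This p was the smallest of all tested genes (0% had a smaller one), while by the size of the increase Csrnp1 ranked 17 among them. On the scale of the scanner, the processed signal ran from 232 to 254 in WT retinas and from 453 to 507 in KO retinas.

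Ier2 encodes a small nuclear protein that takes part in the control of transcription. Its level was -2.0, -1.83, -1.80 and -1.80 in WT and -1.21, -1.09, -1.41 and -1.41 in KO. All KO values were higher, and they fell into a higher pair (KO replicates 1 and 2) and a lower pair (3 and 4). The means were -1.86 ± 0.10 and -1.28 ± 0.16, with a difference of 0.58 (SE 0.09, 95% interval 0.38 to 0.77, limma adjusted p = 0.0144). The call was lost in 3 of 23 other ways of processing, namely without a filter on dim probes (limma adjusted p = 0.0554), with replicate number as a block (limma adjusted p = 0.058) and at a fold change over 1.5. Ier3, which encodes a regulator of cell survival, had levels of 1.59, 1.64, 1.67 and 1.71 in WT and 1.66, 1.60, 1.60 and 1.43 in KO. Its values overlapped, and the difference was -0.08 (95% interval -0.21 to 0.05, limma adjusted p = 0.437). Ier5, a nuclear protein linked to the heat shock response, had 2 probes. The first (A_55_P2021109) read -0.88, -0.83, -0.94 and -0.58 in WT and -0.97, -1.05, -0.92 and -0.82 in KO. The second (A_55_P2021114) read -0.68, -0.87, -0.88 and -0.75 in WT and -0.83, -1.03, -0.92 and -0.99 in KO. Both probes overlapped between genotypes, with differences of -0.13 (95% interval -0.33 to 0.06) and -0.15 (95% interval -0.29 to 0.00; limma adjusted p = 0.39 and 0.214). So of the Ier genes only Ier2 was called, and the intervals of Ier3 and of both Ier5 probes end below that of Ier2.

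The Krüppel-like factors bind GC-rich promoter elements through zinc fingers at the end of the protein. Klf10, known for its rapid induction by TGF-beta, was at -0.24, -0.31, -0.33 and -0.17 in WT and at 0.02, -0.00, 0.06 and -0.02 in KO. All KO values were higher and lay within 0.09 of each other. The difference was 0.28 (SE 0.05, 95% interval 0.17 to 0.38, limma adjusted p = 0.021), just past the fold change of 1.2. The call was lost in 10 of 23 other ways of processing, among them replicate number as a block. It was also lost on leaving out WT replicate 1, 2 or 3 or KO replicate 2 or 3 (difference 0.25 to 0.28, limma adjusted p up to 0.0676). Klf2, a factor that blood flow induces in endothelial cells, was at -1.13, -0.97, -1.03 and -1.08 in WT and at -0.96, -0.81, -0.79 and -0.63 in KO. The lowest KO value lay just above the highest WT value. The difference was 0.25 (SE 0.07, 95% interval 0.09 to 0.42) and was not called (limma adjusted p = 0.0778), but it was without KO replicate 1 (0.31, limma adjusted p = 0.042).

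Klf6, a broadly expressed factor, was at 2.09, 2.16, 2.20 and 2.19 in WT and at 2.17, 2.29, 2.29 and 2.23 in KO. Klf4, a flow-induced factor like Klf2 and also known from reprogramming to pluripotency, was at -1.02, -1.18, -1.11 and -1.16 in WT and at -0.92, -1.12, -1.0 and -1.10 in KO. Both overlapped between genotypes. Their differences were 0.09 (95% interval -0.01 to 0.19, limma adjusted p = 0.277) and 0.08 (95% interval -0.05 to 0.22, limma adjusted p = 0.447), so an increase as large as that of Csrnp1 or Ier2 lies outside both intervals.

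Btg2 and Zfp36 act on other transcripts. Btg2 encodes an antiproliferative protein that binds the CCR4-NOT deadenylase, the complex that removes poly(A) tails, and it is a known target of p53. It was at 1.87, 1.84, 1.68 and 1.91 in WT and at 1.83, 1.87, 1.80 and 1.75 in KO. The KO values lay within the range of the WT values. The difference was -0.01 (95% interval -0.15 to 0.12, limma adjusted p = 0.918), and its sign depended on the scaling. Zfp36 encodes tristetraprolin, which binds AU-rich elements of cytokine mRNAs and brings in the same complex. On 0 of the 8 arrays was its probe (A_52_P80944) well above background. Processed signals ran from 4.49 to 5.35 in the WT retina and from 4.5 to 6.72 in the KO retina, so the gene was not tested and is given no fold change.

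**Figure D2:**
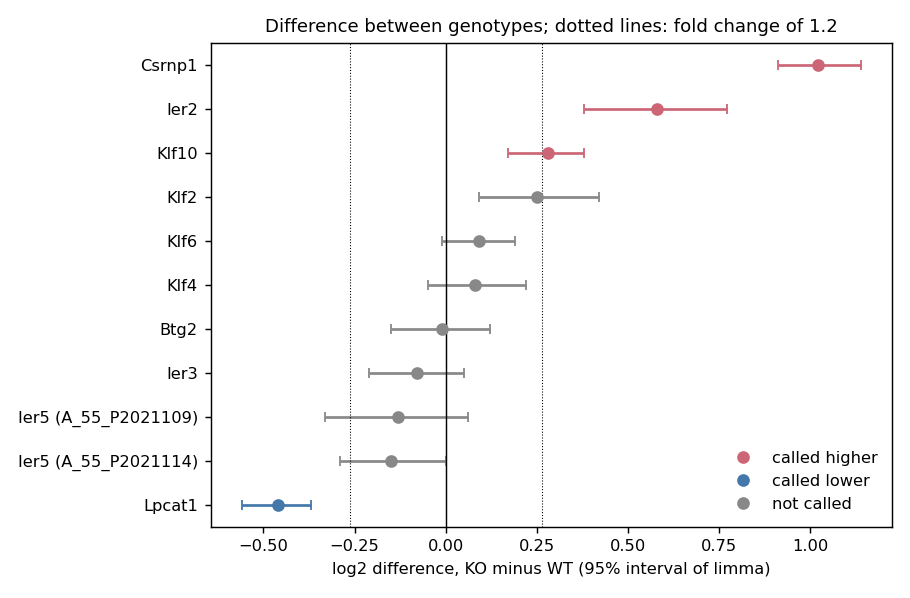
Difference between KO and WT on the log2 scale (x axis) for each tested probe and for Lpcat1, with the 95% interval of limma (n = 4 arrays per genotype). The interval of Csrnp1 lies to the right of all others, and those of Klf6, Klf4, Btg2, Ier3 and Ier5 reach 0.

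The sizes of these differences were then compared within arrays. For each of 36 pairs of the 9 genes, the log ratio of both probes was taken on every array and compared between genotypes by a two-sided exact permutation test, which cannot go below 0.0286 here. After Benjamini-Hochberg adjustment over the pairs the smallest p was 0.0605, and no pair passed 0.05. The 17 pairs without overlap all sat at the floor of 0.0286. Their adjusted p depends on how many pairs reach that floor and not on the size of a difference. No conclusion about single pairs is drawn from it. The ratio of Csrnp1 to the other gene was higher on every KO array than on every WT array in 7 of 8 pairs. The exception was Ier2, where the difference of Csrnp1 exceeded that of Ier2 by 0.44 (SE 0.12, exact permutation p = 0.0571). Csrnp1 exceeded Klf10 by 0.75 (SE 0.05) and Ier5 by 1.17 (SE 0.04). Ier2 exceeded Klf10 by 0.30 with overlapping ratios (SE 0.11, exact permutation p = 0.0571). Klf10 and Klf2 differed by 0.02 (SE 0.10, exact permutation p = 0.857). The order below them was Klf6, Klf4, Btg2, Ier3 and Ier5, and neighbours in it overlapped (exact permutation p = 0.257 to 0.943).

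The 9 genes did not all share an order of arrays within a genotype. Csrnp1, Ier5 and Klf4, picked here after their values were seen, did have the same order of KO arrays. KO replicate 1 was the highest KO array for Csrnp1 and the lowest for Klf2, and KO replicate 4 was below the KO mean in all genes except Klf2, where it was the highest. The number of the 9 genes above their genotype mean was 5, 4, 5 and 6 in WT replicates 1 to 4 and 7, 4, 6 and 1 in KO replicates 1 to 4. The range over the 4 KO arrays was 0.33 for Ier2 and for Klf2, 0.14 for Csrnp1 and 0.09 for Klf10.

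RefSeq promoter windows (GRCm38.p6) were found for 8 of the 10 genes, all except Ier2 and Klf10. The 250 bases before each start site were searched on both strands for elements known from early response promoters. These were the CArG box bound by SRF (in 1.47% of 32851 windows of this length), the cAMP response element TGACGTCA bound by CREB (1.55%) and its short form TGACG (17.8%), the AP-1 element TGANTCA (6.75%), the ETS element CGGAAG (13.6%), the GC box GGGCGG of Sp and Klf factors (32.7%) and the Egr element GCGTGGGCG (0.536%). TGACG lies within TGACGTCA and was counted in it as well. Csrnp1 has 4 start sites, and all 4 windows held TGACG. The third also held 5 GC boxes, and the fourth held 2 AP-1 elements. Btg2 held 1 TGACGTCA and 3 GC boxes, and Zfp36 held 1 CArG box, 2 ETS elements and 1 GC box that shares a base with the CArG box. Klf2 held 1 TGACG and 2 GC boxes, and Klf4 held 1 TGACG and 4 GC boxes. Ier3 and Klf6 held 1 GC box each and Ier5 held 2. The Egr element was in no window of these genes. The 180 bases just before the start are shown for Csrnp1 (the first of its start sites), the gene with the largest difference, for Btg2, whose values overlapped, and for Zfp36, which was not well above background. All 3 are on the minus strand and read 5′ to 3′, with capitals marking TGACG (as its reverse complement) in Csrnp1, TGACGTCA in Btg2 and the CArG box in Zfp36. They lie at chr9:119984743-119984922, chr1:134079156-134079335 and chr7:28379229-28379408.
Csrnp1: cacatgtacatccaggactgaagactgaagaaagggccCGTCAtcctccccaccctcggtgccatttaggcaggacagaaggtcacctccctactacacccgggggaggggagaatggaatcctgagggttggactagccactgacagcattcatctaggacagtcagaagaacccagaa
Btg2: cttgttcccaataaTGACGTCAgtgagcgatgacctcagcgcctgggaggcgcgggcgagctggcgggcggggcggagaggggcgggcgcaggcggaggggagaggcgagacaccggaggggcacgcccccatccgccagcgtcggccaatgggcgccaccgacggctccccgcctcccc
Zfp36: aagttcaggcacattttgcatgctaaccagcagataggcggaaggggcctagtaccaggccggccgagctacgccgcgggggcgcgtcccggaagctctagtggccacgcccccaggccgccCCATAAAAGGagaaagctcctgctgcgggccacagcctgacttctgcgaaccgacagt
In the full windows, the marked elements begin 142 bases before the start in Csrnp1, 166 in Btg2 and 58 in Zfp36. Csrnp1 was the only called gene with a window, and its TGACG was shared by Btg2, Klf2 and Klf4, which were not called, while TGANTCA was found in no other window of these genes.

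Relatives of these genes, 24 in all, were read next, and 20 were tested. Klf15 was called higher and Klf8 lower, and the median difference was 0.05, with 5 genes whose KO values all lay above WT and 1 with all below. Over all tested genes 2.2% were called higher and 1.77% lower, and 8.78% lay wholly above and 12.4% wholly below. At an unadjusted p under 0.05, 6 of the 20 relatives were higher and 2 lower, against 10.9% and 15.3% of all genes. Klf15, a factor of glucocorticoid and metabolic responses, was at -3.65, -3.76, -3.69 and -3.85 in WT and at -3.09, -2.94, -3.28 and -3.02 in KO (difference 0.66, SE 0.08, limma adjusted p = 0.00801), a call lost with replicate number as a block. Klf8 was at -3.48, -3.32, -3.43 and -3.42 in WT and at -3.82, -3.89, -3.81 and -3.74 in KO (difference -0.40, SE 0.05, limma adjusted p = 0.00923), a call lost under normexp background correction, with the same block and at a fold change over 1.5. Both probes lay far below the 75th percentile of their arrays. A second gene was called higher under some scalings, namely Klf11 (0.29, limma adjusted p = 0.069 as reported) under quantile normalization, a median shift and cyclic loess. The closest relatives of Csrnp1, Csrnp2 (0.01, SE 0.04) and Csrnp3 (0.08, SE 0.04), were not called (limma adjusted p = 0.874 and 0.304), nor was Ier5l (0.01, SE 0.04, limma adjusted p = 0.864). Of the Zfp36 relatives, Zfp36l1 (0.09, SE 0.10) and Zfp36l2 (0.19, SE 0.06) were well above background, unlike Zfp36, and were not called (limma adjusted p = 0.659 and 0.108). Klf11, Csrnp2, Csrnp3, Ier5l, Zfp36l1 and Zfp36l2 were chosen after their values were seen.

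Of 37 other early response genes tested, 15 were called higher and 1 (Trib1) lower, with a median difference of 0.26, against 2.2% higher, 1.77% lower and a median of -0.02 over all tested genes. Egr1 (2.03), Fosb (1.54), Fos (1.42), Nr4a1 (1.35) and Cebpd (0.90) had the largest called differences, all but Cebpd above that of Csrnp1, and the standard errors were 0.34 for Egr1, 0.16 for Fosb, 0.14 for Fos, 0.21 for Nr4a1 and 0.08 for Cebpd, against 0.05 for Csrnp1. Egr1 was not called without WT replicate 1, 3 or 4 or KO replicate 2, nor Nr4a1 without WT replicate 3, and neither was called without a filter on dim probes. The count fell to 9 without WT replicate 3, to 10 without that filter and to 8 at a fold change over 1.5. The profile of Csrnp1 over the 8 arrays, each gene set relative to its own WT mean, was nearest to those of Ifit3, Ccl6, Mapkapk3 and Cebpd (root mean square difference 0.17 each on the log2 scale) and Zfp185 (0.20), with differences between genotypes of 1.02, 1.17, 0.95, 0.90 and 0.78. Their calls follow from this choice, since it takes genes whose difference is near that of Csrnp1.

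**Figure D3:**
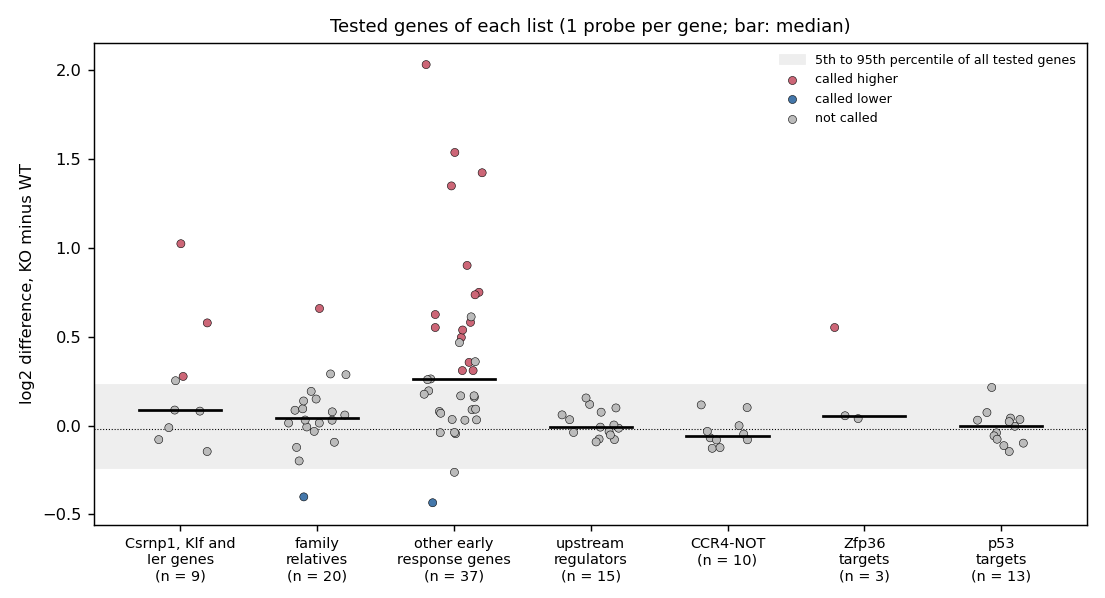
Difference between KO and WT on the log2 scale (y axis) for the tested genes of each list, 1 point per gene, with the list's median as a bar and the range from the 5th to the 95th percentile of all tested genes in grey (-0.24 to 0.23). Points are red where called higher and blue where called lower, and the called increases lie in the lists of early response genes, with Klf15 among the relatives and Nfkbiz, which is on 2 lists, among the Zfp36 targets.

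Genes known to act before or after these factors were read against the same shares of all tested genes, 2.2% called higher and 1.77% lower, or 10.9% and 15.3% at an unadjusted p under 0.05, which in lists this short amount to few or none. The counts for upstream regulators, CCR4-NOT and p53 targets were near these shares. Of 15 upstream regulators, among them Srf, Creb1, the Elk factors and MAP kinases, 0 were called by limma or by the methods' t-test (2 higher at an unadjusted p under 0.05), and the median difference was -0.01. Axin1, for which Csrnp1 was named as an induced gene and which is outside the rule for named genes, was at 0.67, 0.71, 0.57 and 0.66 in WT and at 0.58, 0.63, 0.68 and 0.68 in KO (difference -0.01, SE 0.05). Of 10 CCR4-NOT genes, 0 were called by limma or by the methods' t-test (1 higher and 1 lower at an unadjusted p under 0.05; median -0.06). Of 16 mRNAs that tristetraprolin is known to bind, only Vegfa, Pim1 and Nfkbiz were tested, since the other 13 were not well above background on all arrays of either genotype. Among those 13, Ccl3 and Ccl4, chosen after their values were seen, were well above background on 0 WT arrays and on 2 and 3 KO arrays, and every KO value lay above every WT value. For a rough ratio, each WT array was counted at its own value or at the array's lowest signal well above background, whichever was larger. Against the WT mean so taken, the KO means of Ccl3 and Ccl4 were 1.59 and 1.83 times as high. This is not a strict lower bound, since KO arrays not well above background kept their own values. Nfkbiz rose by 0.55 (SE 0.10, limma adjusted p = 0.0269), a call lost without any 1 of the arrays except KO replicate 1, and without a filter on dim probes, where Ccl4 was called instead. Of 13 tested p53 targets, 0 were called by limma or by the methods' t-test (1 higher and 2 lower at an unadjusted p under 0.05), with a median difference of -0.00.

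Klf2 and Klf4 are known in endothelial cells for inducing genes such as Nos3 and Thbd and for repressing Vcam1. Of 4 tested induced genes, 0 were called by limma or by the methods' t-test (0 higher and 1 lower at an unadjusted p under 0.05, against 10.9% and 15.3% of all genes). Of 4 tested repressed genes, Vcam1 was called lower (-0.48, SE 0.05, limma adjusted p = 0.00427), and its second probe changed by -0.66, against 1.77% of all genes called lower. At an unadjusted p under 0.05, 1 of the 4 was higher (Edn1, 0.20, SE 0.05, limma adjusted p = 0.0671, named after its values were seen) and 1 lower (Vcam1). Vcam1 was at 1.76, 1.89, 1.87 and 1.91 in WT and at 1.39, 1.31, 1.44 and 1.37 in KO, without overlap. The 8 endothelial markers, all well above background, had summed levels between 24.4 and 25.1 in WT and between 23.4 and 24.9 in KO (linear signal over the array's 75th percentile). Flt1 was called higher, against 2.2% of all tested genes. Of the 8 differences 2 were above 0 (median -0.11), against 6299 of 14939 over all tested genes. Every KO value of Pecam1 (-0.17), Cldn5 (-0.17) and Tie1 (-0.22) lay below every WT value, as in 12.4% of all tested genes. None of these was called (limma adjusted p = 0.0957, 0.0544 and 0.17). Pecam1, Cldn5 and Tie1 were chosen after their values were seen. Their part in the values of Klf2, Klf4 and Vcam1 was not tested. The 4 pericyte markers summed to 3.84 to 4.34 in WT and 3.79 to 3.99 in KO.

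Markers of other cells moved with genotype beside Csrnp1, Ier2 and Klf10. For comparison, 2.2% of the 14939 tested genes were called higher and 1.77% lower, and 6299 of them had a difference above 0. On the same linear scale the 10 microglia markers summed to 12.1 to 13.2 in WT and 15.7 to 16.4 in KO, with 6 called higher and 10 of 10 differences above 0. The 8 Müller glia markers summed to 295 to 315 in WT and 353 to 364 in KO, with 3 called higher and 7 of 8 differences above 0. The 3 astrocyte markers summed to 2.8 to 3.76 in WT and 3.82 to 4.06 in KO, with 0 called. Such sums weigh the brightest markers most, for Müller glia Apoe and Clu. For astrocytes this was S100b, not called and named after its values were seen. The 10 rod markers summed to 1980 to 2050 in WT and 1620 to 1790 in KO, with 4 called lower and 0 of 10 differences above 0. The 8 cone markers summed to 208 to 213 and 236 to 247, with 2 called higher. These sums did not overlap between genotypes, and their part in the differences of Csrnp1, Ier2 and Klf10 was not tested. The bipolar (162 to 187 in WT, 171 to 186 in KO), ganglion (102 to 105, 102 to 109), pigment epithelium (13.6 to 17.6, 14.0 to 17.8), lens (0.964 to 1.13, 0.909 to 1.12), blood (10.2 to 13.6, 11.1 to 16.0) and cornea (0.183 to 0.211, 0.186 to 0.232) sums overlapped, while the sum for amacrine and horizontal cells did not (132 to 135 in WT, 142 to 145 in KO).

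**Figure D4:**
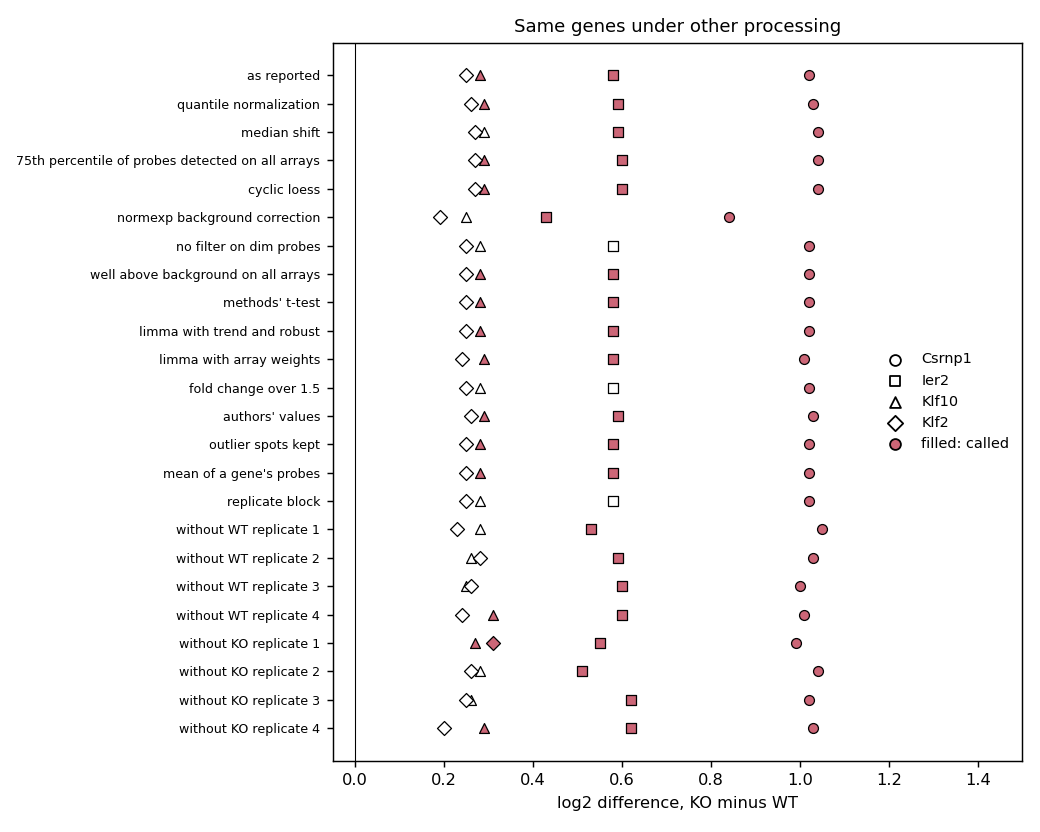
Difference between KO and WT on the log2 scale (x axis) for Csrnp1, Ier2, Klf10 and Klf2 as reported and under 23 other ways of processing (y axis), filled where called. Csrnp1 stayed between 0.84 and 1.05 and was called in all of them, Ier2 in 20 and Klf10 in 13, and Klf2 was called in 1.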

How the data were processed

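Total RNA of the whole retina was labelled with Cy3 and hybridized to SurePrint G3 Mouse GE arrays. The authors quantified the scans with Agilent Feature Extraction 10.7.1.1, and the deposited scanner files hold the processed signal as intensity on a linear scale, with background subtracted and no scaling between arrays. The deposited series table holds the authors' values on a log2 scale after a 75th percentile shift in GeneSpring. They differed from the levels used here by a constant per array and served as an alternative. No column of per-sample values was left unused (0 columns).

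The processed signal was taken to log2 and the 75th percentile of 59305 non-control spots was subtracted on each array. Outlier spots (86 to 147 per array) were left out and repeated spots averaged. A probe entered the test if the 4 arrays of either genotype all had it well above background (33972 of 55681). The test was limma 3.58.1 (lmFit, eBayes; R 4.3.3) with genotype as the single term, and p-values were adjusted over these probes by Benjamini and Hochberg. Genes were named by transcript accession from a RefSeq table, which named 26413 probes (47.4%). A gene was called when 1 of its probes was, and its value was that of its brightest probe. The genes and lists were chosen with earlier results of these data known. Other genes named are Lpcat1, up to 5 called genes of each list and the 5 nearest to Csrnp1 over the arrays, and exceptions are stated. The number of arrays limits the precision. The fits were tested on simulated data. Alternatives were quantile, median, 75th percentile (over commonly detected probes) and cyclic loess scaling, normexp background correction (offset 50), other filters, thresholds and tests, replicate number as a block, the authors' values, and leaving out each array. For normexp, median spot signals were used. With 1 slide and 1 scan, no slide block was fitted.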

Additional observations from a re-analysis of the deposited data

Results flagged for a closer look

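Ier2 in WT replicate 1 lay apart from the other WT arrays, at -2.0 against -1.83 to -1.80, and its gap to the nearest array was 0.838 of the WT range (Dixon's test). It was 1 of 22 groups of 4 arrays examined, and chance flags about 1 in 20. Without this array the difference of Ier2 was 0.53 and stayed called.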

How the results depend on the processing

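Csrnp1 was called in all 23 alternatives (0.84 to 1.05, limma adjusted p up to 0.0161). Ier2 and Klf10 kept their sign in all 23, Ier2 at 0.43 to 0.62 and Klf10 at 0.25 to 0.31. The number of these genes called higher fell to 1 without a filter on dim probes and at a fold change over 1.5, and ran from 2 to 4 when single arrays were left out (2 where Klf10 was lost, 4 without KO replicate 1). Btg2, not called, turned sign under quantile normalization (0.01), cyclic loess (0.01), a median shift (0.00) and the 75th percentile over commonly detected probes (0.01), and without WT replicate 1 (0.00), WT replicate 4 (0.02) or KO replicate 4 (0.01), within a range of -0.06 to 0.02 over the single arrays left out. Among the relatives, 2 were called higher under quantile normalization, a median shift, cyclic loess, normexp, limma with trend and robust eBayes, and array weights (Klf15 and 1 other, Klf11 or Klf13, the latter named after its values were seen), and 1 to 2 when single arrays were left out (2 without KO replicate 1). The relatives called lower numbered 0 under normexp and at a fold change over 1.5. At that fold change 8 other early response genes were called higher and 0 lower, 0 Zfp36 targets were higher, and Lpcat1 (-0.46) missed the call. Leaving out single arrays gave 9 to 15 other early response genes higher, 0 to 1 Zfp36 targets higher, and 1 to 2 genes repressed by Klf2 and Klf4 lower (2 without WT replicate 1). Where no cause follows from the setting itself, the cause was not tested.

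Replicate number was also the column of the slide in both genotypes. Deviations of samples with the same number correlated at 0.249, 0.069, 0.037 and 0.112, and those of the 12 pairs with different numbers at -0.202 to 0.06. As 2 of the 4 lay under 0.1, the numbers were not taken to pair the samples. However, 7 of 8 samples correlated best with their own number, and that number was part of the slide layout. Whether samples of the same number belong together was therefore not settled, and the calls of Ier2 and Klf10 depend on it. With replicate number as a block, 1 of the genes was called higher (Csrnp1), Ier2 and Klf10 were not (limma adjusted p = 0.058 and 0.0672), and 0 relatives were called higher and 0 lower. Over all tested genes the block left 155 higher and 96 lower, against 328 and 264. The balance of directions over all genes also depended on the scaling, with 429 higher and 177 lower under cyclic loess and 394 and 199 with the 75th percentile over commonly detected probes.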
